A study of Homo sapiens with 66 samples.

Results

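The heterogeneous nuclear ribonucleoproteins (hnRNPs) and the serine/arginine-rich (SR) splicing factors are RNA-binding proteins that coat nascent transcripts and steer the choice of splice sites. SR proteins mostly bind exonic enhancers and recruit the spliceosome, many hnRNPs act against nearby splice sites, and polypyrimidine tract-binding (PTB) and poly(C)-binding proteins read pyrimidine-rich RNA. Many of these genes carry conserved cassette exons with premature stop codons ("poison exons"), whose inclusion sends the mRNA to nonsense-mediated decay (NMD) and so limits the level of the protein. hnRNPC, which was targeted in these cells and is not one of the genes described here, binds uridine tracts and keeps cryptic exons, many of them from antisense Alu elements, out of mRNA.

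A list of 39 hnRNP and SR genes was matched by Ensembl identifier to the gene tables, which hold 57820 genes, and 38 were found; SRSF8 was not analysed here. The genes fell into 7 subgroups by family: hnRNP A/B/D, hnRNP F/H, the KH-domain poly(C) binders, hnRNP L and PTB, hnRNP M/R/Q/U, the SR proteins, and the TRA2 and SRRM genes. For 37 of the 38 the counted level was high enough to be tested. HNRNPH2, a close relative of HNRNPH1, was not tested, with 14 to 74 reads per library in the first study (median 43) and 19 to 76 in the second. HNRNPH2 shares its strand with the annotated readthrough gene RPL36A-HNRNPH2, so its low count may understate its level.

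The libraries came from THP-1, a human monocytic leukemia line that carried a Cas9 transgene, in 2 studies of total RNA depleted of ribosomal RNA. In study 1, a STING-deficient clone was nucleofected with nontarget gRNA (CTRL) or with gRNA against GFP, ADAR (the enzyme that edits adenosine to inosine in double-stranded RNA), HNRNPC, or ADAR and HNRNPC together, and whole-cell RNA was taken on day 3, 4, or 5. CTRL cells with IFN-α received it on day 3 and were harvested on day 4 (48 libraries, 16 groups of 3). In study 2, a WT clone that had been nucleofected with a GFP gRNA and sorted for loss of GFP received other gRNAs and was harvested on day 4, as total RNA and as digitonin-soluble (cytosolic enriched) RNA of the CTRL, hnRNPC-, ADAR-, and ADAR+hnRNPC-targeted cells and as digitonin-insoluble (nuclear/mitochondria enriched) RNA of the hnRNPC-targeted cells (18 libraries, 9 groups of 2). Each study thus rests on 1 clone, and all comparisons of a day or fraction share its CTRL libraries. The replicates of both studies were independent experiments, as the study's figure descriptions state. In bulk RNA of this kind, fewer cells that express a gene and less of its RNA per cell cannot be told apart.

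Libraries of study 1 had 95107690 to 152829008 reads on genes and 20930118 to 35684715 on introns, and those of study 2 had 49666958 to 73873756 on genes. HNRNPC mRNA on day 5 was at 811 to 869 CPM (counts scaled to library size) in CTRL, 312 to 323 in hnRNPC-targeted, and 376 to 417 in ADAR+hnRNPC-targeted cells. ADAR mRNA does not check the ADAR label of study 1: on day 5 it was at 364 to 412 CPM in CTRL and 373 to 396 in ADAR-targeted cells. The interferon-stimulated gene IFIT1 had a mean of 873 CPM in ADAR+hnRNPC-targeted cells of day 5, 250 in IFN-α-treated cells, and 0.727 in CTRL of day 5. Of the monocytic markers, 7 of 8 were above 1 CPM. In study 2, CTRL total RNA replicate 2 stood apart from replicate 1: the nuclear RNAs MALAT1 and NEAT1 summed to 3060 CPM in replicate 2 and 1317 in replicate 1, and both ADAR+hnRNPC-targeted total RNA libraries were also high, at 2003 and 2445.

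The levels of the family spanned a wide range in the 9 CTRL libraries of study 1. Per kilobase of annotated exon, HNRNPK had the highest mean level, at 165 ± 6.84 CPM per kb (SD, n = 9), followed by HNRNPF at 144 ± 5.31. SRSF2 at 99.8 ± 4.07, HNRNPH1 at 96.5 ± 9.59, and SRSF1 at 93.0 ± 4.93 CPM per kb came next, and their ranges over the libraries overlapped. At the low end were HNRNPH3 at 3.99, HNRNPUL2 at 3.76, and HNRNPH2 at 0.163 CPM per kb. HNRNPUL2 and HNRNPH2 each share their strand with an annotated readthrough gene, so both levels are uncertain. The order also depends on the annotated exon length, which was 22512 bases for HNRNPU and 5700 for HNRNPK. Without division by length, HNRNPU was above HNRNPK, at 1539, 1540, and 1551 against 944, 1006, and 986 CPM in CTRL of day 5.

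What hnRNPC targeting did to the rest of the family was read from CTRL cells of the same day. Most hnRNP and SR mRNAs fell by day 5, by small amounts: 7 genes were lower and 4 higher on day 3 (backgrounds over all 13187 genes tested, 25.4% lower and 12.6% higher), 15 were lower and 4 higher on day 4 (28% and 23.4%), and 25 were lower and 2 higher on day 5 (35.2% and 29.5%; edgeR's quasi-likelihood test, Benjamini-Hochberg adjusted p of at most 0.05). No member reached a 2-fold change on any of these days (of all genes tested on day 5, 3.75% fell and 3.96% rose that far). The median log2 fold change on day 5 was -0.29 over the 37 genes and -0.03 over all genes tested. The days have their own CTRL libraries, and the 7 genes lower on day 3 were all among the 15 lower on day 4 (46.7% of those), which in turn were all among the 25 lower on day 5 (60% of those). For this overlap and those given below, the overlap over all genes was not computed, so they are not shown to be particular to these genes. Leaving out hnRNPC-targeted replicate 1 of day 3 took the count of lower genes on that day from 7 to 4, and leaving out CTRL replicate 1 or hnRNPC-targeted replicate 2 of day 4 took the higher genes from 4 to 2.

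**Figure D1:**
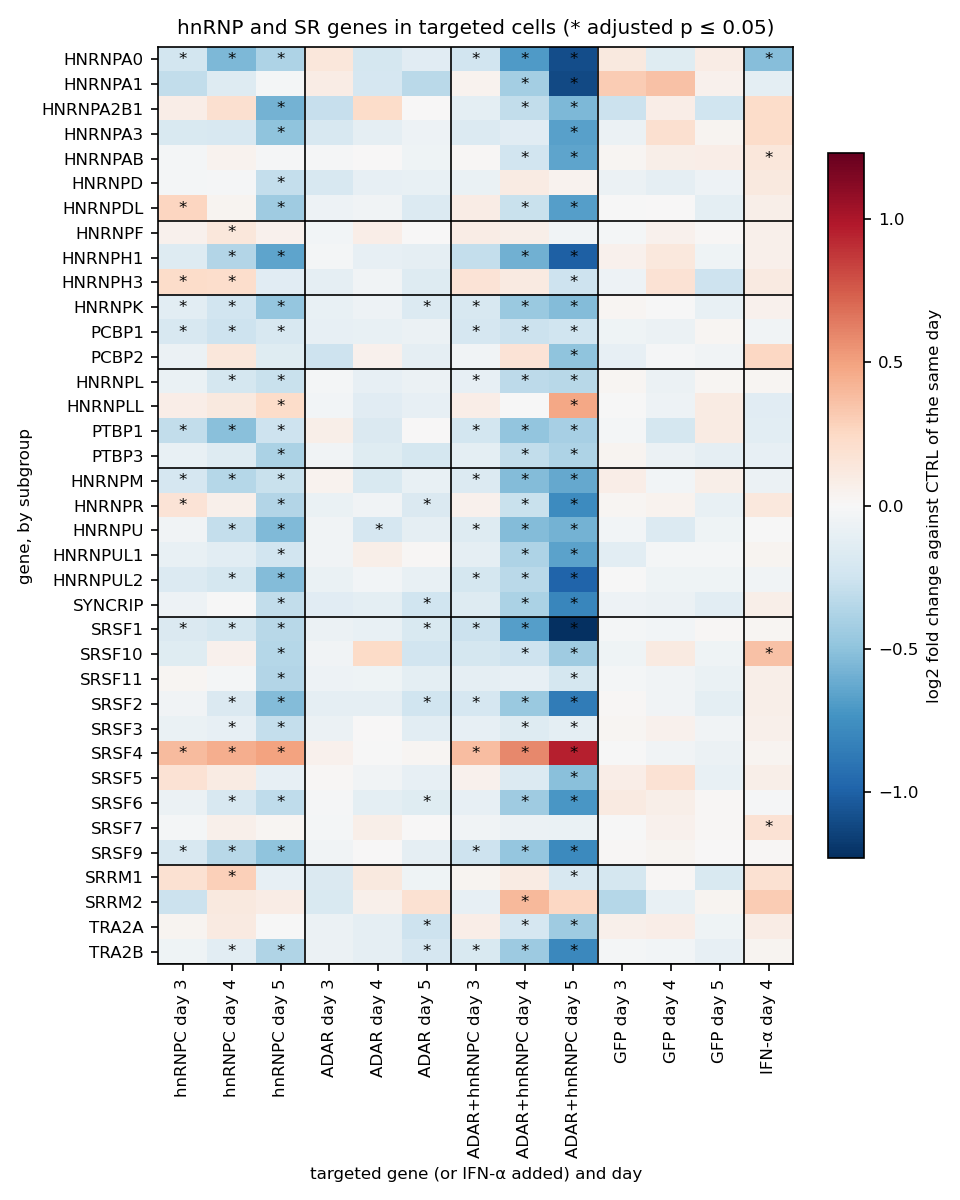
Log2 fold change of the 37 tested hnRNP and SR genes (rows, by subgroup, separated by lines) against CTRL of the same day in study 1 (columns: targeted gene and day, or IFN-α); asterisks mark an adjusted p of at most 0.05 by edgeR's quasi-likelihood test. Blue (lower) cells gather in the hnRNPC- and ADAR+hnRNPC-targeted columns of day 5, where 25 and 31 genes are lower, while the SRSF4 row is red in all 6 of these columns.

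Among the hnRNP A/B/D genes, some of which encode core proteins of hnRNP particles, 5 of 7 were lower in hnRNPC-targeted cells on day 5. HNRNPA2B1 was at 658, 713, and 675 CPM in CTRL and at 420, 482, and 464 CPM in hnRNPC-targeted cells. The groups did not overlap, and the log2 fold change was -0.58 ± 0.09 (SE; edgeR adjusted p = 6.89e-07). The highest of this subgroup was HNRNPAB, which shuttles mRNA and regulates transcription as well, with a log2 fold change of -0.02 that did not pass the test.

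HNRNPH1, which binds G runs next to splice sites, had the lowest log2 fold change of all members at this time. It was at 1016, 880, and 888 CPM in CTRL and at 592, 609, and 575 in hnRNPC-targeted cells, a log2 fold change of -0.65 ± 0.14 (SE; edgeR adjusted p = 7.71e-05). Its relatives HNRNPF (0.05) and HNRNPH3 (-0.14) did not pass the test, so that 1 of 3 F/H genes was lower. All 3 poly(C) binders had negative values, and 2 passed: HNRNPK at -0.47 ± 0.04 (from 944, 1006, and 986 CPM in CTRL to 712, 719, and 682) and PCBP1 at -0.19 ± 0.07. The PCBP1 groups were 44.8, 41.5, and 41.6 against 41.4, 35.2, and 35.3 CPM, and the call was lost without CTRL replicate 1 (adjusted p = 0.0901), without hnRNPC-targeted replicate 2 (0.103) or 3 (0.0978), and without the low-count filter (0.0675).

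In the hnRNP L and PTB subgroup, 3 of 4 genes were lower and 1 was higher. PTBP1, the general repressor of pyrimidine-flanked exons, was lower on each of the 3 days, with log2 fold changes of -0.30, -0.51, and -0.25, and its paralog PTBP3 had the lowest value of the subgroup on day 5, -0.39. HNRNPLL, an hnRNP L paralog known for CD45 exon skipping in lymphocytes, was called higher on day 5 at 0.23 ± 0.09. Its groups overlapped (54.7, 55.1, and 45.4 CPM in CTRL against 65.6, 65.9, and 50.5), and the call was lost without CTRL replicate 3 (adjusted p = 0.213) or hnRNPC-targeted replicate 1 (0.154) or 2 (0.157), and with the GFP-targeted cells as the control (0.245).

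All 6 genes of the hnRNP M/R/Q/U subgroup were lower on day 5, between -0.24 for HNRNPUL1 and -0.55 for HNRNPU. HNRNPU encodes a chromatin-bound scaffold protein and was at 1539, 1540, and 1551 CPM in CTRL and 1060, 1086, and 1028 in hnRNPC-targeted cells (log2 fold change -0.55 ± 0.04, SE; edgeR adjusted p = 3.23e-14). HNRNPUL2, a relative of HNRNPU, went from 18.8, 20.4, and 20.8 to 13.3, 13.8, and 14.4 CPM (-0.53 ± 0.08). HNRNPUL2 shares its strand with the annotated readthrough gene HNRNPUL2-BSCL2, so its reads are uncertain.

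The SR proteins held both directions: 7 of 10 genes were lower on day 5 and SRSF4 was higher. SRSF2, a classical SR protein that binds exonic enhancers, was at 312, 312, and 306 CPM in CTRL and at 212, 216, and 216 in hnRNPC-targeted cells (-0.53 ± 0.05, SE; edgeR adjusted p = 1.93e-11), and SRSF9 was at -0.50 ± 0.05. SRSF4, a large SR protein with a long RS domain, moved the other way. On day 5 it was at 83.1, 81.3, and 73.0 CPM in CTRL and at 116, 113, and 106 in hnRNPC-targeted cells; the groups were well apart, and its log2 fold changes were 0.39, 0.45, and 0.50 (SE 0.05 each) on days 3, 4, and 5 (edgeR adjusted p = 7.02e-08, 1.07e-09, and 4.42e-11). Of the TRA2 and SRRM genes, TRA2B, a splicing activator with its own poison exon, was lower on day 5 at -0.37, and SRRM2, a large scaffold of nuclear speckles, had the highest value, 0.09, which did not pass the test.

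**Figure D2:**
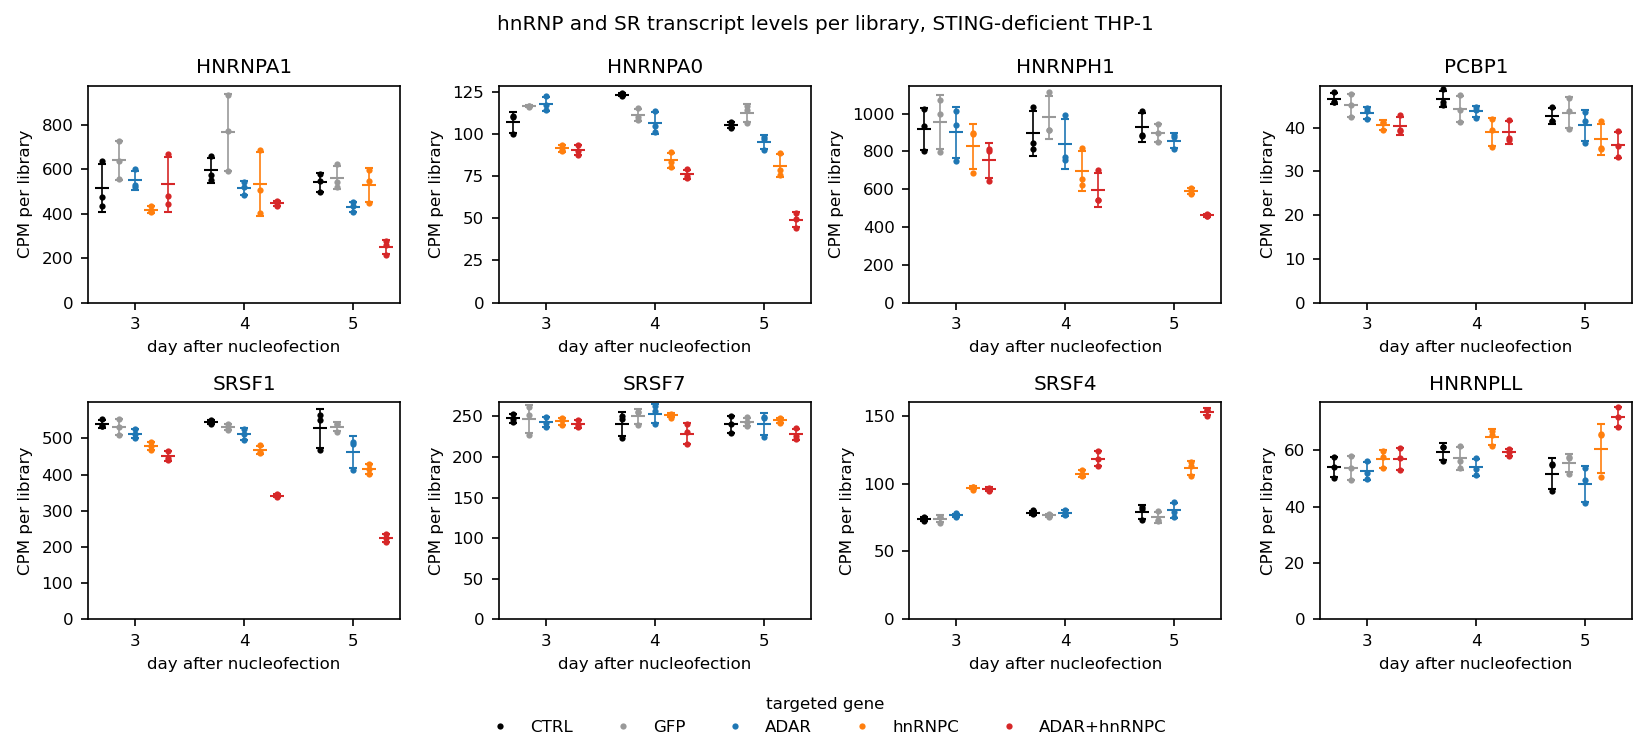
CPM per library (points), with mean and SD (bars, n = 3), of 8 hnRNP and SR genes on days 3, 4, and 5 in the 5 gRNA groups of study 1. SRSF1, HNRNPA0, and HNRNPA1 are lowest in the ADAR+hnRNPC-targeted libraries of day 5 (214 to 235 CPM for SRSF1), SRSF4 is highest there (151 to 155 CPM), and SRSF7 stays near its CTRL level.

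ADAR targeting alone gave far fewer calls among these genes. On day 3, 0 genes passed in either direction by edgeR, limma-voom, or DESeq2 (backgrounds 0% and 0%), with 4 genes at an unadjusted p below 0.05, and on day 4 HNRNPU alone was lower, at -0.21 ± 0.04 (background 0.0910% lower, 0.554% higher); that call was lost without CTRL replicate 1 or ADAR-targeted replicate 3. On day 5, 8 genes were lower and 0 were higher (background 4.78% lower, 4.45% higher). They were HNRNPK, HNRNPR, SYNCRIP, SRSF1, SRSF2, SRSF6, TRA2A, and TRA2B, all with small changes: the lowest was TRA2A at -0.26 ± 0.06 (SE; edgeR adjusted p = 0.00421). SRSF2 was at 265, 268, and 254 CPM in ADAR-targeted cells, below every CTRL library of day 5. The count of 8 fell to 3 without CTRL replicate 2 or ADAR-targeted replicate 3, to 5 without CTRL replicate 3, and to 3 with the GFP-targeted cells as the control. With the replicate number as a block it rose to 12, with HNRNPU (adjusted p = 0.0232), HNRNPDL (0.0400), SRSF3 (0.0400), and PTBP3 (0.0441) added.

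In ADAR+hnRNPC-targeted cells the decrease was broader and deeper. On day 3, 12 genes were lower and 1 was higher (backgrounds 16.7% and 12%), on day 4 25 were lower and 2 higher (31.6% and 25.5%), and on day 5 31 were lower and 2 higher (39% and 34.5%). The median log2 fold change on day 5 was -0.53 over the 37 genes and -0.04 over all genes tested. A 2-fold decrease with an adjusted p of at most 0.05 was reached on day 5 by SRSF1, HNRNPA1, HNRNPA0, and HNRNPH1 and a 2-fold increase by none (over all genes, 6.23% and 9.38%). The 12 genes lower on day 3 were all among the 25 of day 4 (48% of those), and these were all among the 31 of day 5 (80.6% of those). The lower count of day 3 was 7 without CTRL replicate 1 or 2 and 15 with the replicate block, which added HNRNPH1, SYNCRIP, and SRSF6; the higher count of day 4 was 1 without CTRL replicate 3 or ADAR+hnRNPC-targeted replicate 2.

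SRSF1, the prototype SR protein (SF2/ASF; GRCh37, chr17:56078280-56084707, minus strand), fell furthest. It was at 550, 566, and 467 CPM in CTRL, 486, 489, and 411 in ADAR-targeted, 430, 417, and 403 in hnRNPC-targeted, and 235, 225, and 214 in doubly (ADAR+hnRNPC) targeted cells of day 5. The doubly targeted libraries were far below all others, at a log2 fold change of -1.23 ± 0.06 against CTRL (SE; edgeR adjusted p = 2.69e-21), after -0.26 on day 3 and -0.68 on day 4. SRSF1 shares its strand with ENSG00000266086.

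HNRNPA1, the most studied splicing repressor of the family (chr12:54673977-54680872, plus strand), was at 546, 577, and 496 CPM in CTRL, 595, 547, and 446 in hnRNPC-targeted, 451, 435, and 405 in ADAR-targeted, and 278, 259, and 214 in doubly targeted cells of day 5. With the low-count filter, only the doubly targeted libraries were set apart by the test: the log2 fold change was -1.11 ± 0.16 there (edgeR adjusted p = 1.08e-07), -0.03 with hnRNPC targeting, and -0.33 with ADAR targeting (adjusted p = 0.176). The ADAR-targeted libraries were all below those of CTRL, and without the low-count filter their difference was called (edgeR adjusted p = 0.000507). HNRNPA0, an intronless A/B relative (chr5:137081340-137090052, minus strand), went from 107, 105, and 103 CPM in CTRL to 53.3, 49.8, and 44.4 in doubly targeted cells of day 5. This was -1.10 ± 0.08, with 88.6, 75.8, and 78.3 CPM in hnRNPC-targeted cells in between.

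HNRNPH1 (chr5:179041179-179061785, minus strand) fell to 468, 457, and 458 CPM, -1.01 ± 0.14, and HNRNPUL2 to 10.2, 10.2, and 9.76 CPM, -0.99 ± 0.08. SRSF2 followed at -0.86 and SYNCRIP (hnRNP Q) and TRA2B at -0.80 each. All 6 hnRNP M/R/Q/U genes (median -0.72), 6 of 7 A/B/D genes (median -0.67), all 3 poly(C) binders (median -0.49), 8 of 10 SR genes (median -0.47), 3 of 4 L and PTB genes, 3 of 4 TRA2 and SRRM genes, and 2 of 3 F/H genes were lower. The calls of SRRM1 (-0.20), HNRNPH3 (-0.25), and SRSF3 (-0.12) were the weakest: that of SRRM1 was lost when any 1 of the 6 libraries was left out (adjusted p up to 0.0914), that of HNRNPH3 without ADAR+hnRNPC-targeted replicate 1 (0.0514), and that of SRSF3 without CTRL replicate 2 (0.0731) or ADAR+hnRNPC-targeted replicate 2 (0.117). With the GFP-targeted cells as the control, all 3 calls were lost, at -0.01 for SRRM1 (adjusted p = 0.893), -0.0006 for HNRNPH3 (0.995), and -0.07 for SRSF3 (0.160), and that of SRSF3 was also lost without the low-count filter (0.240).

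The genes that were higher in doubly targeted cells of day 5 were SRSF4 and HNRNPLL. SRSF4 (chr1:29474255-29508412, minus strand) was at 155, 155, and 151 CPM, above every other library of that day, a log2 fold change of 0.96 ± 0.05 (SE; edgeR adjusted p = 2.04e-19), after 0.38 on day 3 and 0.59 on day 4. HNRNPLL was at 75.4, 71.8, and 68.3 CPM, above all CTRL libraries (0.47 ± 0.09). With the low-count filter, SRRM2 was called higher on day 4 alone (0.40 ± 0.13). It was then at 107, 112, and 85.1 CPM in CTRL and 120, 160, and 121 in doubly targeted cells. This call was lost without CTRL replicate 3 (0.28, adjusted p = 0.0957) or ADAR+hnRNPC-targeted replicate 2 (0.25, adjusted p = 0.136). The 4 genes that passed in neither direction on day 5 were HNRNPD (0.05), HNRNPF (-0.04), SRSF7 (-0.08), and SRRM2 (0.25). Without the low-count filter, SRRM2 was called higher on day 5 as well (edgeR adjusted p = 0.00283). It was at 108, 100, and 101 CPM in CTRL and 115, 133, and 121 in doubly targeted cells of that day.

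Whether the response to hnRNPC targeting itself differed with ADAR targeting was tested as an interaction on day 5. The difference passed for 17 of the 37 genes, 12 (32.4%) with a lower and 5 (13.5%) with a higher value in the presence of ADAR targeting (backgrounds 23.7% and 23.9%). Neither direction passed for 20 of the 37 members and 6913 of the 13187 genes tested. Members thus passed about as often as all genes. The lowest were HNRNPA1 at -0.75 ± 0.22, SRSF1 at -0.70 ± 0.08, and HNRNPA0 at -0.58 ± 0.12 (SE; edgeR adjusted p = 0.00558, 1.72e-09, and 8.41e-05). SRSF4 (0.43 ± 0.07) and HNRNPD (0.43 ± 0.14), an AU-rich element-binding protein, had the highest values (edgeR adjusted p = 2.95e-06 and 0.0102). SRSF3, the smallest SR protein, had a value of 0.30 ± 0.06: it was at 469, 462, and 445 CPM in hnRNPC-targeted and at 538, 496, and 520 CPM in ADAR+hnRNPC-targeted cells, against 553, 574, and 558 in CTRL. IFIT1 differed along with these genes, with a mean of 873 CPM in doubly targeted, 4.81 in ADAR-targeted, and 1.81 in hnRNPC-targeted cells of day 5, and the part of the interferon response in these values was not tested.

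The effect of IFN-α by itself was read from CTRL cells of day 4 that had been treated since day 3, a shorter time than that since nucleofection. It gave 3 higher and 1 lower gene (backgrounds 11.1% and 7.19%). HNRNPA0 was at 122, 124, and 123 CPM in CTRL of day 4 and at 92.8, 99.1, and 65.9 with IFN-α; the groups did not overlap, and the log2 fold change was -0.52 ± 0.08 (SE; edgeR adjusted p = 8.53e-06). SRSF10, an SR-like repressor that responds to heat shock, went from 58.6, 60.4, and 63.7 to 76.5, 80.3, and 77.4 CPM (0.36 ± 0.09), and SRSF7 (0.17) and HNRNPAB (0.14) were also called higher, both no longer without the low-count filter (adjusted p = 0.173 and 0.352). SRSF1 (0.02), HNRNPA1 (-0.12), HNRNPH1 (0.06), and SRSF4 (0.03) did not pass with IFN-α. The count of higher genes was 1 without CTRL replicate 1 and 6 without IFN-α replicate 1, the count of lower genes was 2 without IFN-α replicate 2, and the replicate block gave 5 higher genes, with HNRNPR (0.13, adjusted p = 0.0348) and HNRNPA2B1 (0.23, adjusted p = 0.0440) added.

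GFP-targeted cells served as a second control. Against CTRL, 0 of the 37 genes passed in either direction on days 3, 4, and 5 (edgeR; backgrounds 0.0303%, 0.0227%, and 5.36% higher and 0%, 0%, and 1.94% lower). At an unadjusted p below 0.05 there were 5, 4, and 6 genes, and DESeq2 called 1 lower on day 4 and none on the other days. With the replicate block, HNRNPU was called on day 4 (-0.17, adjusted p = 0.0298), and TRA2B, HNRNPA2B1, and HNRNPH3 on day 5 (-0.10, -0.25, and -0.25).

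The introns of the members were read in the same comparisons. In ADAR+hnRNPC-targeted cells of day 5, 128 of 187 tested member introns were lower and 6 higher at an adjusted p of at most 0.05 by edgeR's quasi-likelihood test (36.3% and 14.3% of all introns tested), and in hnRNPC-targeted cells 45 were lower and 7 higher on that day (16.0% and 13.9%). Of 361 intronic pieces within the member genes, 322 could be placed as introns between annotated exons, and 187 of them, in 32 genes, had enough reads to be tested among 21798 introns. Their values are on the scale of the gene totals of each library, and a call from here on needs an adjusted p of at most 0.05 and a 2-fold change. Introns are numbered along the transcript, and the sequences below are the 3′ splice sites of the 4 introns called higher in hnRNPC- or ADAR+hnRNPC-targeted cells, shown because pyrimidine tracts at such sites are where hnRNPC and the splicing factor U2AF bind. They are from the GRCh37 genome, 5′ to 3′ on the transcribed strand, with the last bases of the intron followed by the first 3 bases of the exon and the longest run of T in capitals.
PCBP2 intron 6 (chr12:53854772-53854801, plus): gattttgaatttcTTTTTactccaaagagt
HNRNPR intron 5 (chr1:23650223-23650252, minus): gattctaataagggggTTTTatttcaggta
SRSF3 intron 3 (chr6:36568902-36568931, plus): gcctaaTTTTcctgtttctgcttttagatc
SRSF7 intron 1 (chr2:38977334-38977363, minus): cattcttctatttgcgTTTTTaaacagaaa

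The longest T runs of these sites were of 4 or 5 bases, against a median of 4 over the 322 member introns. Inside the introns the T runs were longer. The longest run on the transcribed strand was of 28 bases in HNRNPR intron 5 (9785 bases long), 25 in SRSF3 intron 3 (2168 bases), 15 in PCBP2 intron 6 (1611 bases), and 8 in SRSF7 intron 1 (1034 bases). Of the 322 member introns, 60 (18.6%) had a run of at least 15, and the median longest run was 7 at a median length of 748.5 bases; longer introns hold longer runs, and length was not matched.

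In hnRNPC-targeted cells, 1, 2, and 2 member introns passed as higher on days 3, 4, and 5 (backgrounds 2.49%, 3.57%, and 4.00%), and 0 passed as lower by edgeR, limma-voom, or DESeq2 (0.138%, 0.505%, and 2.35%), also with an unadjusted p below 0.05 in place of the adjusted one. The first was PCBP2 intron 6 (chr12:53853188-53854798), which holds an exon of an annotated NMD transcript. On day 5 it was at 3.88, 3.93, and 3.63 CPM in CTRL and at 13.1, 13.5, and 14.1 in hnRNPC-targeted cells. The groups were far apart, and the log2 fold changes were 1.24, 1.82, and 1.83 on the 3 days (SE 0.17 each; edgeR adjusted p on day 5 = 6.38e-11), while the mRNA of its gene, a poly(C)-binding regulator of RNA stability and translation, was at -0.15 on day 5 and did not pass. PCBP2 intron 6 lies within the noncoding gene ENSG00000257379 on the same strand, so its reads could come from either.

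The second was HNRNPR intron 5 (chr1:23650226-23660010), with no annotated exon inside. It was at 2.69, 2.14, and 2.26 CPM in CTRL and at 5.10, 4.68, and 5.61 in hnRNPC-targeted cells of day 5, without overlap, after log2 fold changes of 0.85 on day 3 and 1.14 on day 4, and of 1.12 on this day, while HNRNPR mRNA fell (-0.36 on day 5). Below 2-fold on day 5, PCBP2 intron 9 (0.81), SRSF7 intron 1 (0.67), and HNRNPF intron 2 (0.61; 1.00 on day 4, just under 2-fold) were among the 7 that passed as higher at the adjusted p alone. The counts of 2-fold calls moved with single libraries: 2 were higher on day 3 without CTRL replicate 1 or hnRNPC-targeted replicate 3, and on day 5 4 were lower without CTRL replicate 2 and 1 without hnRNPC-targeted replicate 2 or 3.

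**Figure D3:**
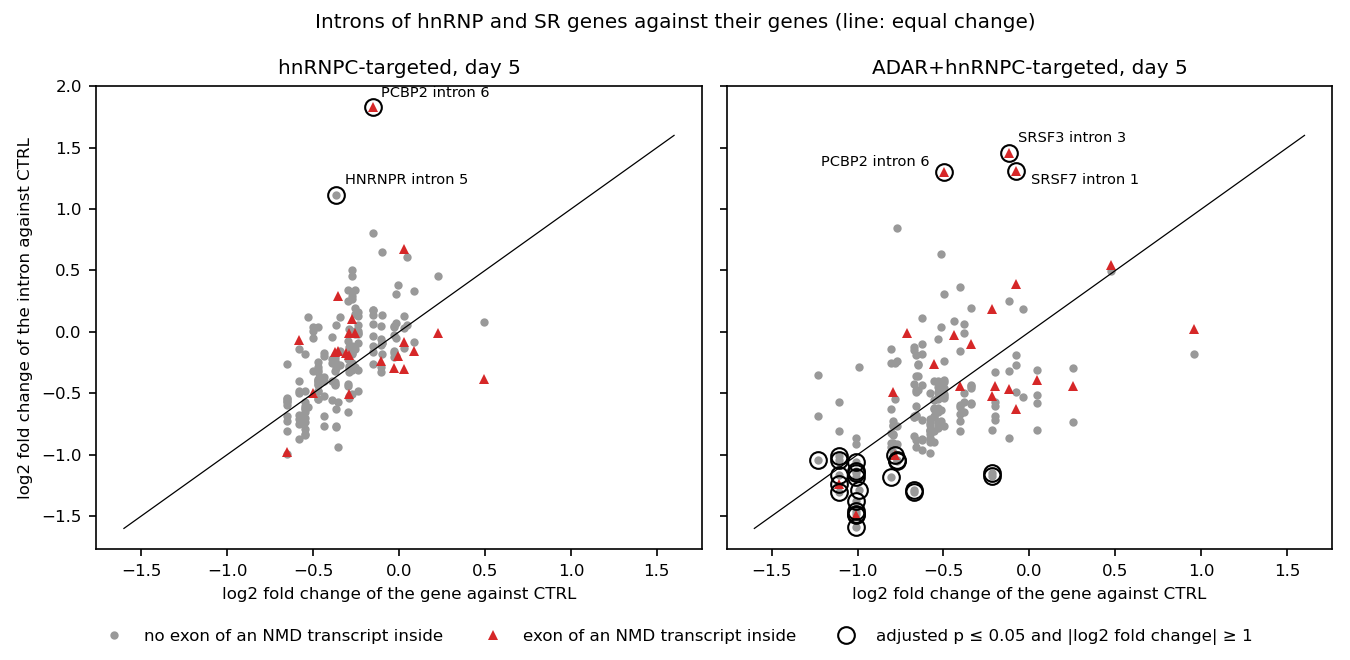
Log2 fold change against CTRL on day 5 of each tested member intron (y axis) against that of its gene (x axis) in hnRNPC- and ADAR+hnRNPC-targeted cells; the line marks equal change, triangles mark introns that hold an exon of an NMD transcript, and circles mark an adjusted p of at most 0.05 with a 2-fold change. PCBP2 intron 6, HNRNPR intron 5, SRSF3 intron 3, and SRSF7 intron 1 stand above the line, and the circled introns at the lower left belong to genes that fell.

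In ADAR+hnRNPC-targeted cells 0, 1, and 3 member introns were higher on days 3, 4, and 5 (backgrounds 1.68%, 3.57%, and 5.49%) and 0, 0, and 24 lower (0.161%, 0.711%, and 8.03%). The 3 higher introns of day 5 were SRSF3 intron 3, SRSF7 intron 1, and PCBP2 intron 6. All 3 hold an exon of an annotated NMD transcript, which 22 of the 187 tested introns do. Of these 22, another 3 were lower by 2-fold. At the adjusted p alone 4 of the 22 were higher and 10 lower, with a median log2 fold change of -0.32. Without CTRL replicate 1 or ADAR+hnRNPC-targeted replicate 3 of day 3, 2 introns were higher on that day, and without CTRL replicate 1 of day 4, 2 on day 4.

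SRSF3 intron 3 (chr6:36566761-36568928) had the largest increase. On day 5 it was at 47.4, 46.5, and 45.1 CPM in CTRL, 56.0, 53.7, and 52.6 in ADAR-targeted, 48.9, 45.2, and 43.9 in hnRNPC-targeted, and 132, 120, and 130 in ADAR+hnRNPC-targeted cells. The doubly targeted libraries stood far above the rest, at 1.46 ± 0.12 (SE; edgeR adjusted p = 4.27e-13), after 0.85 on day 4; with hnRNPC targeting alone the value was -0.01. The interaction of day 5, fitted on introns after these values were seen, was 1.25 ± 0.16 (edgeR adjusted p = 5.10e-07), and 1 member intron was higher and 1 lower by 2-fold in that test (backgrounds 2.26% and 2.59%). With IFN-α the intron was at 44.4, 40.2, and 38.5 CPM, next to 46.3, 37.3, and 38.6 in CTRL of day 4, and the log2 fold change was 0.01.

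SRSF7 intron 1 (chr2:38977337-38978370) rose from 2.29, 1.78, and 2.28 CPM in CTRL to 4.95, 5.79, and 4.96 in doubly targeted cells of day 5, with 3.77, 3.31, and 3.03 in hnRNPC-targeted cells. The log2 fold changes were 1.31 ± 0.23 and 0.67 ± 0.23 (SE; edgeR adjusted p = 9.55e-06 and 0.0203), and their difference, 0.23 ± 0.32, did not pass. SRSF7 mRNA passed in neither comparison (-0.08 and 0.03). PCBP2 intron 6 was at 9.21, 8.71, and 10.3 CPM in the doubly targeted cells, a log2 fold change of 1.30 ± 0.17, between CTRL and the hnRNPC-targeted cells.

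**Figure D4:**
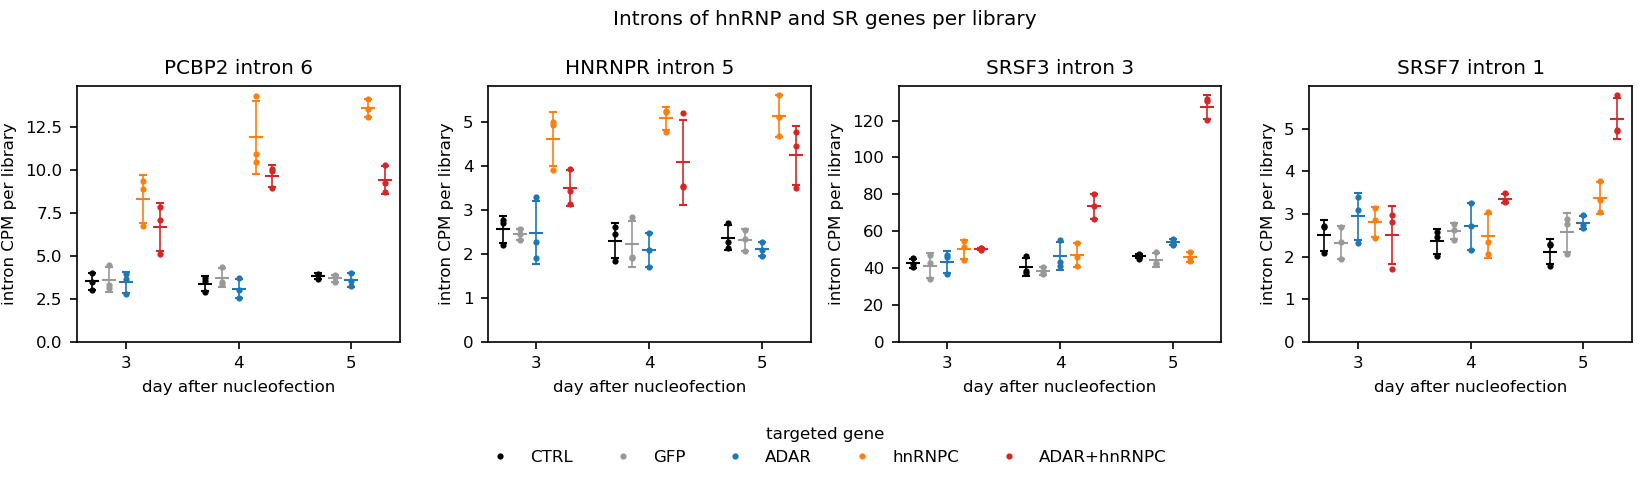
CPM per library (points) with mean and SD (bars, n = 3) of 4 member introns on days 3, 4, and 5 in the 5 gRNA groups of study 1. PCBP2 intron 6 and HNRNPR intron 5 are high whenever HNRNPC was targeted, and SRSF3 intron 3 is high in ADAR+hnRNPC-targeted cells of days 4 and 5 (120 to 132 CPM on day 5).

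The 24 lower introns of doubly targeted cells of day 5 came from genes whose mRNA fell. HNRNPH1 had the 5 lowest (intron 2 at -1.59, intron 1 at -1.49, intron 3 at -1.48, intron 4 at -1.46, and intron 8 at -1.38), and 10 of its 11 tested introns had an adjusted p of at most 0.05 (median -1.18, mRNA -1.01). HNRNPH1 intron 2 was at 24.8, 16.4, and 20.8 CPM in CTRL and at 6.19, 7.78, and 6.58 in the doubly targeted cells. HNRNPDL introns 7 and 8 (-1.31 and -1.29), HNRNPA1 introns 5 and 7 (-1.31 and -1.24), and HNRNPUL2 intron 1 (-1.29) came next, and all 7 tested HNRNPA1 introns and all 12 of HNRNPU were lower at the adjusted p threshold. The median log2 fold change was -0.60 over member introns and -0.28 over all introns. The 24 became 38 without the low-count filter, and the range was 19 to 26 when 1 library was left out.

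The introns of SRSF4 did not move with its mRNA: its 2 tested introns were at -0.18 and 0.02 while SRSF4 mRNA was at 0.96. The tested HNRNPLL introns were at 0.49 and 0.54, and its mRNA was at 0.47. ADAR targeting on day 5, GFP targeting on day 5, and IFN-α gave 0 member introns past both thresholds by edgeR, limma-voom, or DESeq2, and 0 with an unadjusted p below 0.05 and a 2-fold change (over all introns tested, ADAR day 5 0% in both directions, GFP day 5 0.00459% higher and 0% lower, IFN-α 0.821% higher and 0.0229% lower).

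Study 2 gives the same family in another clone on day 4. In total RNA of ADAR+hnRNPC-targeted cells, 18 members were lower and 1 higher than in CTRL (backgrounds over 13637 genes tested, 22.3% and 12.4%), with a median of -0.34 over the members and -0.12 over all genes. The libraries are separate from those of study 1, and 17 of the 18 lower genes, SRSF5 being the exception, were among the 25 lower in ADAR+hnRNPC-targeted cells of day 4 there (68% of those), and all 18 were among the 31 of day 5 (58.1% of those). HNRNPA0 was at 94.0 and 68.8 CPM in CTRL and at 36.1 and 41.0 in doubly targeted cells, a log2 fold change of -1.08 ± 0.14 (SE; edgeR adjusted p = 5.37e-05). SRSF1 was at 501 and 403 against 251 and 255 CPM (-0.84 ± 0.13). SRSF4, the gene called higher, was at 97.6 and 67.3 against 118 and 101 CPM (0.41 ± 0.14); without CTRL replicate 2 its value was 0.22 and it was no longer called. With 2 libraries per group, leaving 1 out leaves a single library that is assumed to vary like the other groups of study 2. The lower count was then 11 without CTRL replicate 1 or ADAR+hnRNPC-targeted replicate 1, and the higher count was 0 without ADAR+hnRNPC-targeted replicate 1.

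A few members tracked the nuclear RNAs that set CTRL total RNA replicate 2 and both doubly targeted total RNA libraries apart. The difference of these libraries was not confined to nuclear RNA. The mitochondrial RNA MT-ND1 was at 37.0 and 156 CPM in CTRL, 43.2 and 33.3 in hnRNPC-targeted, 29.8 and 38.1 in ADAR-targeted, and 68.2 and 102 in ADAR+hnRNPC-targeted cells. MT-CO1 did not follow this, at 1931 and 2764 CPM in CTRL and 1597 and 1963 in ADAR+hnRNPC-targeted cells. SRRM2 was at 209 and 679 CPM in CTRL, 190 and 147 in hnRNPC-targeted, 169 and 195 in ADAR-targeted, and 421 and 581 in ADAR+hnRNPC-targeted cells. PCBP2 was at 59.4 and 181, 55.8 and 57.7, 46.5 and 48.8, and 111 and 135 CPM in the same order. The CTRL replicates of both genes differed more from each other than CTRL replicate 1 differed from the singly targeted libraries. The part of MALAT1 and NEAT1 in this, or of whatever they share with these genes, was not tested. Without CTRL replicate 2, SRRM2 was at 1.32, PCBP2 at 1.11, and HNRNPD at 1.14 in doubly targeted against CTRL total RNA (edgeR adjusted p = 0.000673, 0.0118, and 0.0298), and with it at 0.17, 0.03, and 0.09, none called; the higher count was then 4. These p-values set 1 CTRL library against 2 and take their spread from the other groups.

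The single targetings of study 2 gave few calls in total RNA, and these were lost when single libraries were left out. HNRNPC mRNA itself was at 910 and 581 CPM in CTRL and 433 and 493 in hnRNPC-targeted total RNA. In simulated counts, 17% of genes changed by 0.5 on the log2 scale were called for hnRNPC total RNA, so few calls do not show a lack of response. In total RNA of hnRNPC-targeted cells 1 member was lower and 0 higher (backgrounds 3.04% and 2.08%): SRRM2, at -1.40 ± 0.34, which was -0.30 and not called without CTRL replicate 2. The lower count was also 0 without either hnRNPC-targeted replicate, and 9 lower and 4 higher genes were called without CTRL replicate 1. In ADAR-targeted cells 3 were lower (PCBP2, SRRM2, and HNRNPUL2) and SRSF4 was higher (3.88% and 9.02%); all 4 calls were lost without CTRL replicate 2 or either ADAR-targeted replicate, and 9 lower and 5 higher genes were called without CTRL replicate 1.

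In cytosolic enriched RNA, 0 members passed with hnRNPC targeting by edgeR, limma-voom, or DESeq2 (backgrounds 0.719% higher and 1.88% lower; 2 genes at an unadjusted p below 0.05), where SRSF4 was at 85.8 and 90.4 CPM in CTRL and 103 and 128 in hnRNPC-targeted cells (0.39 ± 0.14, adjusted p = 0.184). With ADAR+hnRNPC targeting 16 were lower and 1 was higher (20.5% and 20.1%), at a median of -0.38 over the members and -0.07 over all genes. ADAR targeting alone was not tested in this fraction, so these calls are not shown to need both targetings. Of the 16 lower genes, 15 were among the 31 of ADAR+hnRNPC day 5 in study 1 (48.4% of those), HNRNPD being the exception. SRSF4 was at 173 and 162 CPM in these doubly targeted libraries, 0.93 ± 0.15 above CTRL on the log2 scale (edgeR adjusted p = 0.000113). The 3 members lower by 2-fold were PCBP2, HNRNPD, and HNRNPA3. PCBP2 went from 283 and 192 to 107 and 116 CPM, and HNRNPD from 291 and 243 to 116 and 136. HNRNPA3 went from 459 and 368 to 179 and 213 CPM. All 3 of these calls were lost when certain single libraries were left out. The levels of these genes also differed within CTRL total RNA, at 59.4 and 181 CPM for PCBP2, 87.9 and 261 for HNRNPD, and 139 and 337 for HNRNPA3. None of the 3 was called in doubly targeted cells of day 4 in study 1, where PCBP2 was at 0.17. In cytosolic enriched RNA, SRSF1 fell from 666 and 598 to 361 and 395 CPM (-0.74 ± 0.13) and HNRNPUL2 from 44.5 and 42.6 to 23.9 and 28.3 CPM (-0.74 ± 0.14). With ADAR targeting alone, SRSF1 was at 508 and 528 CPM, HNRNPUL2 at 30.1 and 31.8, and SRSF4 at 128 and 131. These values lay between those of CTRL and doubly targeted cells. HNRNPA0 was at 79.8 and 91.4 against 62.1 and 62.7 CPM (-0.46 ± 0.14), a call lost without CTRL replicate 2 or either doubly targeted replicate. The lower count was 8 without CTRL replicate 1 and 7 and 9 without ADAR+hnRNPC-targeted replicates 1 and 2.

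The fractions ask where these mRNAs are. Mitochondrial RNA summed over 5 genes was at 29.6 to 61.0 CPM in cytosolic enriched and at 2101 to 4152 CPM in total RNA, so the cytosolic fraction was depleted of mitochondria. The nuclear RNA MALAT1 was reduced far less. In hnRNPC-targeted cells it was at 940 and 696 CPM in cytosolic and 2265.3 and 2024.5 in nuclear/mitochondria enriched RNA. Nuclear RNA thus remained in the cytosolic fraction, and its part in the differences below was not tested. Over the 4 gRNA groups, 33 members were higher and 1 lower in cytosolic enriched than in total RNA (backgrounds 49.3% and 27.1%; medians 0.33 over members and 0.17 over all genes). In hnRNPC-targeted cells 23 members were higher and 1 lower in cytosolic than in nuclear/mitochondria enriched RNA (45.2% and 25.7%; medians 0.47 and 0.27).

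PTBP3 had the highest value between these fractions: it was at 777 and 719 CPM in cytosolic and 170 and 256 in nuclear/mitochondria enriched RNA, a log2 difference of 1.81 ± 0.15 (SE; edgeR adjusted p = 2.42e-08). HNRNPUL1 (1.00 ± 0.15), SRSF1 (0.95 ± 0.13), SRSF9 (0.93 ± 0.12), and HNRNPAB (0.91) followed. HNRNPH1 was the 1 member called lower in the cytosolic fraction, at 544 and 654 CPM against 808 and 712 (-0.34 ± 0.13), and SRRM2 (-0.33), SRSF5 (-0.15), HNRNPM (0.01), and HNRNPL (0.05) were the other 4 of the lowest 5. The call of HNRNPH1 was lost without cytosolic replicate 1 (-0.22) or nuclear replicate 1 (-0.27). Against total RNA, PCBP2 (1.08 ± 0.18), SRRM2 (0.98 ± 0.17), PTBP3 (0.97 ± 0.07), PCBP1 (0.91 ± 0.11), and HNRNPA3 (0.88) were highest, and HNRNPH1 (-0.20 ± 0.07) was lowest, followed by HNRNPL (-0.02), SRSF5 (0.00), SRSF6 (0.04), and TRA2B (0.14). The values of PCBP2, SRRM2, and HNRNPA3 rested on total RNA libraries that differed, also within CTRL. These genes were low in 5 of the 8 total RNA libraries (147 to 209 CPM for SRRM2, against 421 to 679 in the other 3). CTRL replicate 1 was among the 5, and CTRL replicate 2 was the highest of the 8. In ADAR+hnRNPC-targeted cells SRRM2 was at 398 and 451 CPM in cytosolic enriched and 421 and 581 in total RNA, PCBP2 at 107 and 116 against 111 and 135, and HNRNPA3 at 179 and 213 against 186 and 229, so that the mean of none of the 3 was higher in the cytosolic fraction there. Without CTRL total RNA replicate 2, PCBP2 was at 1.30 and SRRM2 at 1.22 over the groups. PTBP3 was higher in every cytosolic enriched library (627 to 967 CPM) than in any total RNA library (358 to 490).

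**Figure D5:**
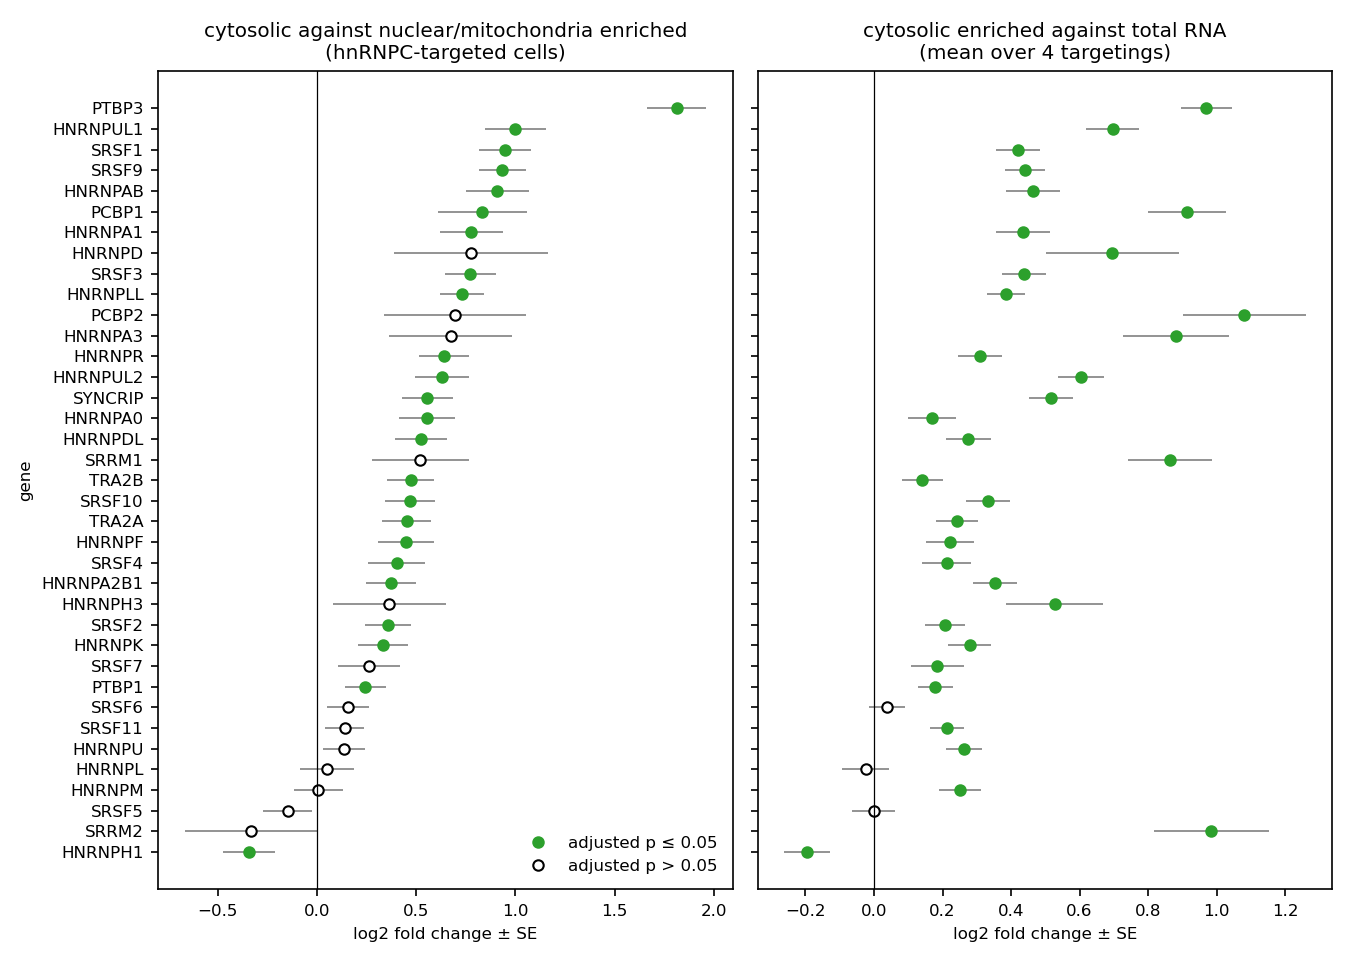
Log2 difference ± SE of each of the 37 members between cytosolic and nuclear/mitochondria enriched RNA of hnRNPC-targeted cells (left, 2 against 2 libraries) and between cytosolic enriched and total RNA over 4 gRNA groups (right, 8 against 8 libraries); filled points have an adjusted p of at most 0.05. PTBP3 is furthest to the right on the left panel at 1.81, and HNRNPH1 is below 0 on both panels.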

How the data were processed

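The authors deposited read counts per gene for both studies and per intron for study 1, made from stranded, ribosomal RNA-depleted total RNA libraries (TruSeq Stranded Total RNA) with STAR 2.5.4a, featureCounts, and bedtools on GRCh37; uniquely mapped reads were counted over exons of GENCODE v19 genes, and introns were gene intervals without exons of principal transcripts. Counts were tested with edgeR 4.0.16 (quasi-likelihood test, TMM normalization, R 4.3.3) in 1 fit over all libraries of each table, after a filter that kept genes with an average log2 CPM of 0.5 or more and introns with 1 or more, with introns scaled to gene totals. P-values were adjusted by Benjamini-Hochberg over all features tested. The members, gene lists, and tests were chosen with earlier results of these data known. Genes were named by fixed rules: members that passed a test in study 1 with a log2 change of 0.5 or more in size, the highest and lowest member of each subgroup on day 5, the 5 highest and 5 lowest members between fractions, the 12 introns with the largest changes, and other splicing genes with a 2-fold change. Replicate numbers paired the samples in hnRNPC (days 4 and 5), ADAR (days 4 and 5), ADAR+hnRNPC (days 3 and 4), and GFP (days 4 and 5) comparisons, where every same-numbered pair of libraries correlated at over 0.1; on day 5 of hnRNPC targeting, r was 0.31 to 0.40. Exons, introns, and splice sites were placed with GENCODE v44 lifted to GRCh37, and T runs were searched on the transcribed strand. Alternatives were limma-voom 3.58.1, DESeq2 1.42.0, RLE normalization, no low-count filter, a replicate block, the GFP control, intron library sizes, and leaving out each library. Tests were checked on simulated counts. No libraries were identical.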

Additional observations from a re-analysis of the deposited data

Results flagged for a closer look

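The response to hnRNPC targeting on day 5 differed between cells with and without ADAR targeting for 17 hnRNP and SR genes, by the interaction term of edgeR's quasi-likelihood test. Differences are log2 fold changes with ADAR targeting minus those without. They were negative for HNRNPA1 (-0.75), SRSF1 (-0.70), HNRNPA0 (-0.58), HNRNPAB (-0.58), HNRNPUL1 (-0.43), HNRNPUL2 (-0.37), SYNCRIP (-0.26), HNRNPM (-0.26), SRSF6 (-0.25), HNRNPR (-0.23), TRA2B (-0.21), and SRSF9 (-0.17). They were positive for SRSF11 (0.26), SRSF3 (0.30), HNRNPLL (0.35), HNRNPD (0.43), and SRSF4 (0.43). Over all genes tested, 23.7% were lower and 23.9% higher in this test. Of the members, 32.4% were lower and 13.5% higher, so that both directions together passed about as often as over all genes.

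HNRNPAB is a member whose value with hnRNPC targeting alone was -0.02 and with both targetings -0.65. The calls of SYNCRIP and SRSF9 were lost with RLE normalization, and those of SYNCRIP, SRSF9, and HNRNPLL when single libraries were left out. Without the low-count filter, the calls of HNRNPR, SRSF11, TRA2B, HNRNPM, SRSF6, SYNCRIP, and SRSF9 were lost (adjusted p = 0.0633 to 0.347).

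Among the introns, the same difference, fitted after the values were seen, passed with a 2-fold size for HNRNPUL1_intron12 (-1.07 ± 0.22, SE; edgeR adjusted p = 0.00079) and SRSF3_intron3 (1.25 ± 0.16; edgeR adjusted p = 5.10e-07). HNRNPUL1 intron 12 was at 1.80, 1.65, and 1.62 CPM in CTRL, 2.09, 2.21, and 2.55 in ADAR-targeted, 1.80, 1.64, and 2.23 in hnRNPC-targeted, and 1.07, 1.49, and 1.08 in ADAR+hnRNPC-targeted cells.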

How the results depend on the processing

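Of the counts of called members, 201 of 232 gene and 100 of 108 intron values stayed within 1.5 times under another setting. Without the low-count filter, the counts became 2 higher for hnRNPC day 3, 1 lower for ADAR day 3, 0 lower for ADAR day 4, 3 lower for ADAR day 5, 6 lower for ADAR+hnRNPC day 3, 1 higher and 1 lower for GFP day 3, 1 higher for GFP day 4, 1 lower for GFP day 5, 7 lower for the interaction, 1 higher and 7 lower for hnRNPC total RNA, 8 lower for ADAR total RNA, 1 lower for hnRNPC cytosolic RNA, and 2 lower for cytosolic against nuclear RNA; for introns they became 2 higher for hnRNPC day 3, 1 lower for hnRNPC day 4, 38 lower for ADAR+hnRNPC day 5, and 1 lower for IFN-α. With the GFP control, they became 2 higher for hnRNPC day 4, 1 higher for hnRNPC day 5, 0 lower for ADAR day 4, 3 lower for ADAR day 5, and 3 higher for ADAR+hnRNPC day 3. In hnRNPC total RNA, DESeq2 gave 1 higher and 4 lower, RLE normalization 1 and 2, and limma-voom 0 lower; DESeq2 gave 1 lower for GFP day 4. With intron library sizes, 1 intron was lower on hnRNPC day 4, 2 on hnRNPC day 5, and 1 on ADAR+hnRNPC day 4, and 6 were higher on ADAR+hnRNPC day 5. The causes were not tested.

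With the replicate number as a block, 1 member was lower for GFP day 4, 3 for GFP day 5, and 2 for hnRNPC total RNA, and 5 were higher for IFN-α. In hnRNPC total RNA, where same-numbered samples correlated at -0.18, the crossed pairing, added after seeing the data, also gave 2 lower; between cytosolic and nuclear RNA, at -0.23, the crossed pairing gave 23 higher and 1 lower. The block added the calls named in the report and SRSF5 in the interaction (adjusted p = 0.0243) and changed no other gene call of study 1.

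Leaving out 1 library gave, as lowest and highest counts, 4 to 6 lower for hnRNPC day 3, 2 to 4 higher for day 4, and 1 to 2 higher for day 5; 0 to 1 lower for ADAR day 4 and 3 to 8 for day 5; 7 to 11 lower for ADAR+hnRNPC day 3 and 1 to 3 higher for day 4; 1 to 6 higher and 1 to 2 lower for IFN-α; 0 to 4 higher and 0 to 9 lower for hnRNPC total RNA; 0 to 5 and 0 to 9 for ADAR total RNA; 0 to 4 and 11 to 20 for ADAR+hnRNPC total RNA; 7 to 12 lower for ADAR+hnRNPC cytosolic RNA; and 0 to 1 lower for cytosolic against nuclear RNA. For introns the ranges were 1 to 2 higher for hnRNPC day 3, 0 to 4 lower for hnRNPC day 5, and 0 to 2 and 1 to 2 higher for ADAR+hnRNPC days 3 and 4. No value changed sign among the calls. In simulated counts with the depth and spread of these libraries, 76% of genes changed by 0.5 on the log2 scale were called for hnRNPC day 5 (13187 genes), 17% for hnRNPC total RNA (13637 genes), and 10% of introns (21798 introns).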

Other observations

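A list of 49 other splicing genes (SR protein kinases, paralogs of the members, and other splicing regulators), 48 of them tested, had 9 higher and 18 lower genes in hnRNPC-targeted and 16 higher and 24 lower genes in ADAR+hnRNPC-targeted cells of day 5. Of that list, 3 genes had a 2-fold change in either comparison, and all 3 fell. SRPK1, the main cytoplasmic kinase of SR proteins, was at -1.51 with hnRNPC targeting and at -1.17 with both, RBM3, a cold-inducible RNA-binding protein, was at -1.05 and -1.06, and ILF2 was at -0.59 and -1.01. The list was chosen with earlier results of these data known. Over all genes tested, 29.5% were higher and 35.2% lower in hnRNPC-targeted cells and 34.5% and 39% in ADAR+hnRNPC-targeted cells, at an adjusted p of at most 0.05 by edgeR's quasi-likelihood test. The medians over the 48 genes were -0.06 and -0.19 on the log2 scale. Of the 8 SR protein kinases (SRPK, CLK, and related genes), 3 were higher and 2 lower with hnRNPC targeting, and 4 were higher and 3 lower with both. Of the 31 other splicing regulators tested, 4 were higher and 13 lower with hnRNPC targeting, and 9 were higher and 19 lower with both.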
